A study of Mus musculus with 2 samples.

Results

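The miR-130 and miR-301 family is a group of microRNA (miRNA) genes whose hairpins carry the same short targeting sequence. Its 4 genes, Mir130a, Mir130b, Mir301 (also named Mir301a) and Mir301b, were picked by name from the 1973 genes of the deposited count tables, and each had a row there. The libraries held small RNA of mouse stomach at embryonic day 16.5. There were 2 biological replicates of 1 group, both of them pools that mixed the sexes, from B6NCrl embryos labelled healthy. Replicate 2 came from 41 embryos, and the number behind replicate 1 is not in the labels. Both carried the same donor label, and nothing says that they share no litter, so their spread may be partly technical. With 1 tissue, 1 age and no treatment, genes were compared with each other in this tissue, and the 2 libraries with each other. Sense-assigned reads came to 7734578 in replicate 1 and 7983714 in replicate 2. Levels are in counts-per-million (CPM) of these reads. Intervals cover the counting error of reads only. No molecular identifiers are described, so repeated reads of 1 molecule could not be told apart and the intervals may be too narrow.

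A miRNA guides an Argonaute protein to messenger RNAs, mostly by pairing of its seed, bases 2 to 8 from the 5′ end. Each hairpin can give a mature miRNA from its 5′ arm (5p) and one from its 3′ arm (3p). Members of a family with one seed can bind overlapping sets of messenger RNAs. Members of this family have been studied in blood vessels, fat cells and tumours. In human endothelial cells miR-130a is known to lower the homeobox proteins GAX and HOXA5, and in fat cells miR-130 is known to lower the receptor PPARG.

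The mature sequences below (RefSeq, GRCm38.p6, 5′ to 3′) show what joins the family and where its members part, with the seed in capitals. On the 3′ arm the seed AGUGCAA was the same in every sequence listed, and the source used held no 3′ arm sequence for Mir301b.
miR-130a-3p: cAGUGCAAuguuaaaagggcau
miR-130b-3p: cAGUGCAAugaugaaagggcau
miR-301a-3p: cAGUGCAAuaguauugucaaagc

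Counted from 1 at the 5′ end, miR-130a-3p and miR-130b-3p differed at 2 of 22 positions, U11A and A13G, with the miR-130a base first. Over 22 aligned positions, miR-301a-3p differed from miR-130a-3p at 10 and from miR-130b-3p at 11, all after the ninth base. All 4 member hairpins held the letters CAGUGCAAU, the seed with 1 base on each side. Of 1005 mouse hairpins in the table, 8 held them on the strand that is transcribed, or 0.796%, and 12 held the seed itself, or 1.19%.

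The 5′ arms, shown because they split the same genes differently, did not share 1 seed.
miR-130a-5p: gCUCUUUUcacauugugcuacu
miR-130b-5p: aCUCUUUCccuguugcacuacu
miR-301a-5p: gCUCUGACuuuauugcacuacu
miR-301b-5p: gCUCUGACuagguugcacuacu

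The seed CUCUGAC was common to miR-301a-5p and miR-301b-5p, which differed at 3 of 22 positions (U10A, U11G and A12G, miR-301a base first). Each of the other 5′ arms had a seed of its own within the family. The deposited counts belong to whole hairpin genes, so how reads divided between the arms could not be measured.

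The genes lie at 3 loci (GRCm38, the assembly that mm10 names). Mir130a is a minus-strand gene of chromosome 2 (84741115 to 84741178) with no other gene annotated over it on that strand. Mir301 is a plus-strand gene of chromosome 11 (87113004 to 87113089) in an intron of Ska2, which encodes a kinetochore protein of the mitotic spindle. Mir301b, on chromosome 16 from 17124400 to 17124496, and Mir130b, from 17124061 to 17124142, share the minus strand with 257 bases between them. Both lie in an intron of the protein-coding gene 2610318N02Rik, in each of its 3 annotated transcripts that span them.

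Mir130a carried most of the family. It had 176963 reads, or 22879.5 CPM, in replicate 1 and 168156 reads, or 21062.4 CPM, in replicate 2. The mean of 21971 ± 1285 CPM (SD, n = 2) placed it 11 among all genes, at rank 9 in replicate 1 and 13 in replicate 2. Mir130a stood near the top of the profile of reads placed in 1 position in both libraries. Multiply placed reads, 25.1% and 25.2% of all reads in replicates 1 and 2, name no gene. Genes with such reads may therefore rank lower than all their reads would put them.

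Mir130b, the gene closest to Mir130a among the members with a listed 3′ arm sequence, had 32509 reads, or 4203 CPM, in replicate 1. In replicate 2 it had 28657 reads, or 3589 CPM. Its mean was 3896 ± 434 CPM (SD, n = 2), rank 45. Mir130b therefore stood at 18.4% and 17.0% of the Mir130a level in replicates 1 and 2.

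Mir301, which gives miR-301a, had 7145 reads, or 924 CPM, in replicate 1 and 6448 reads, or 808 CPM, in replicate 2, with a mean of 866 ± 82.1 CPM (SD, n = 2) and rank 100. Mir301b was the lowest member, with 381 reads (49.3 CPM, 95% interval by Clopper-Pearson 44.4 to 54.5) in replicate 1 and 330 reads (41.3 CPM, 37.0 to 46.0) in replicate 2. Its mean was 45.3 ± 5.60 CPM (SD, n = 2), rank 225. All 4 members were above 10 CPM in both libraries, and replicate 1 was the higher library for each of them on this scale. In a bulk pool, expression in fewer cells and less RNA per cell cannot be told apart.

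**Figure D1:**
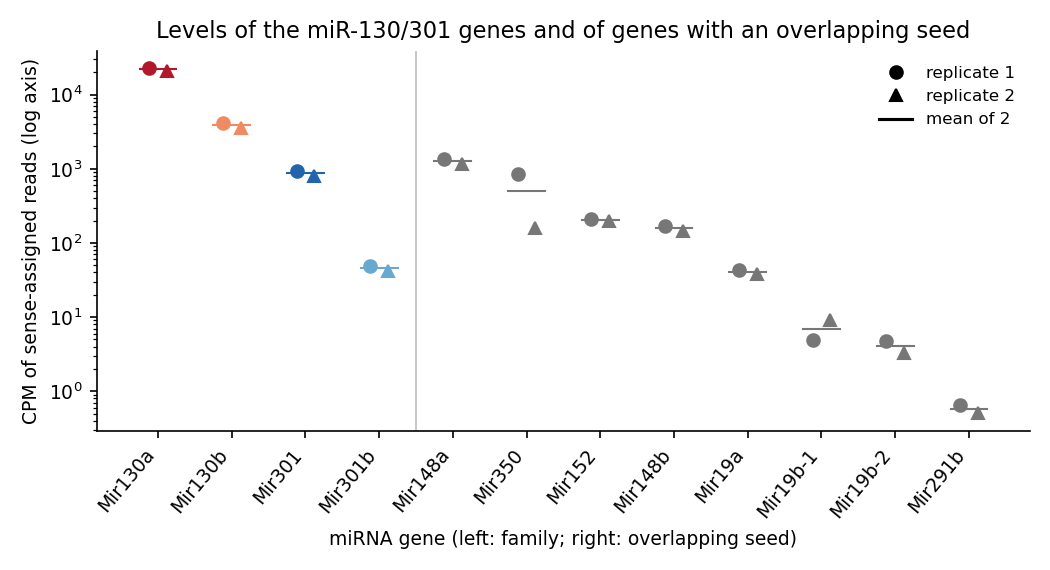
CPM of sense-assigned reads (log axis) for the 4 family genes on the left and for 8 genes with an overlapping seed on the right, with a circle for replicate 1, a triangle for replicate 2 and a line for their mean. Mir130a is highest at 21971 CPM and Mir301b lowest of the family at 45.3 CPM, and Mir350 is the gene whose 2 libraries lie farthest apart.

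The order Mir130a, Mir130b, Mir301, Mir301b was the same in both libraries. Mir130a was 5.44-fold above Mir130b in replicate 1 (counting interval 5.38 to 5.51) and 5.87-fold in replicate 2 (5.79 to 5.94). Mir130b was 4.55-fold above Mir301 in replicate 1 (4.43 to 4.67) and 4.44-fold in replicate 2 (4.33 to 4.57). The widest step was the last, with Mir301 18.8-fold above Mir301b in replicate 1 (16.9 to 20.8) and 19.5-fold in replicate 2 (17.5 to 21.9). From top to bottom the family spanned 464-fold in replicate 1 and 510-fold in replicate 2.

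No neighbours in this order overlapped, and the gaps between their means were 14.1, 6.98 and 9.99 times the SD of the higher gene, from the top step to the bottom one. With 2 libraries the smallest p of a two-sided exact sign-flip permutation test is 0.5, so no p is given for the order. One read was taken to stand for one small RNA, so the levels were not divided by hairpin length. Dividing by it (64, 82, 86 and 97 bases, from Mir130a to Mir301b) left the order as it was. This division could only widen the steps, since length rises as the level falls. A bias of library preparation between miRNA sequences would be shared by both libraries and is not covered by the SD.

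**Figure D2:**
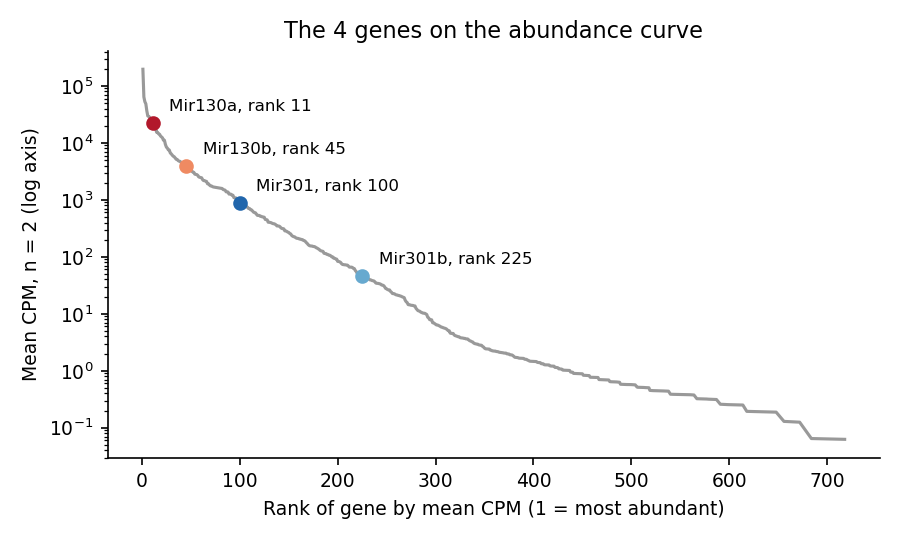
Mean CPM over the 2 libraries (log axis) against rank for genes with a sense read, with the 4 family genes marked. They sit at ranks 11, 45, 100 and 225.

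Added together, the family took 2.81% of sense-assigned reads in replicate 1, with a 95% Clopper-Pearson interval of 2.79% to 2.82%, and 2.55% in replicate 2, with 2.54% to 2.56%, a mean of 2.68% ± 0.181 (SD, n = 2). Without Mir130a the other 3 genes held 0.518% in replicate 1 and 0.444% in replicate 2.

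Within the family, Mir130a made up 81.6% of the reads in replicate 1 (81.39% to 81.71%) and 82.6% in replicate 2 (82.43% to 82.76%). Mir130b made up 15.0% in replicate 1 (14.83% to 15.13%) and 14.1% in replicate 2 (13.93% to 14.23%). For both genes the intervals of the libraries did not overlap, so the split between them moved by more than the counting error of reads, though by about 1 percentage point. Mir301 held 3.29% and 3.17% of the family in replicates 1 and 2, and Mir301b 0.176% and 0.162%, with overlapping intervals for each.

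The paired hairpins on chromosome 16 were far apart in level. Mir130b was 85.3-fold above Mir301b in replicate 1 (counting interval 77.1 to 94.6) and 86.8-fold in replicate 2 (77.9 to 97.1), across those 257 bases of 1 intron. The log2 of this ratio had an SD of 0.0179 between the libraries. That of Mir130b over Mir301, on separate chromosomes, had 0.0239, and that of Mir130a over Mir130b, also on separate chromosomes, 0.0766. The remaining pairs had 0.0419 (Mir301 over Mir301b), 0.0526 (Mir130a over Mir301) and 0.0945 (Mir130a over Mir301b). With 2 libraries and a counting interval of 77.1 to 94.6 in replicate 1, an SD of 0.0179 is not resolved. Whether the paired hairpins vary together was not tested.

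**Figure D3:**
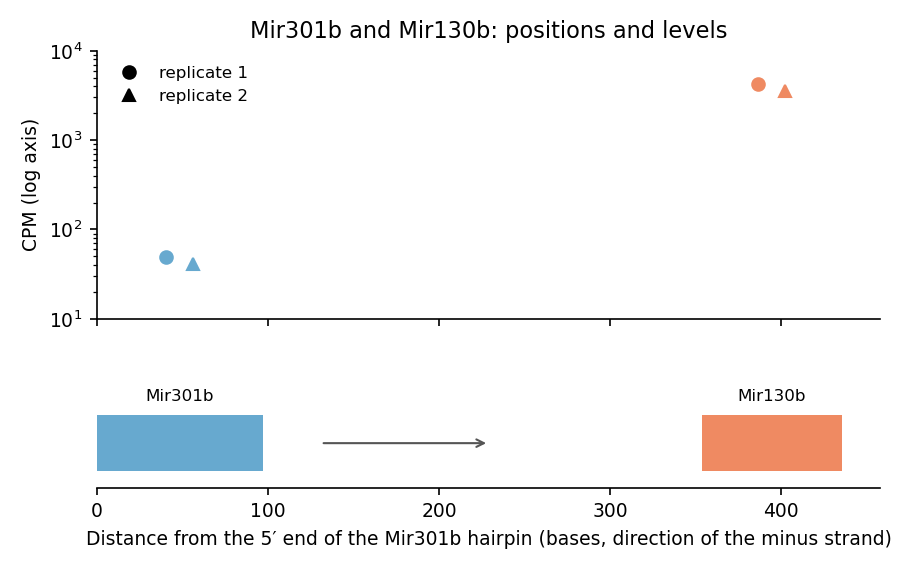
The Mir301b and Mir130b hairpins drawn to scale by distance in bases along the minus strand (bottom), with CPM per library on a log axis above each (circle, replicate 1; triangle, replicate 2). Mir301b stands at 49.3 and 41.3 CPM and Mir130b at 4203 and 3589 CPM.

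Between the libraries the 4 genes moved little. After scaling by the trimmed mean of M values (TMM), the log2 ratio of replicate 1 to replicate 2 was −0.06 for Mir130a (counting interval −0.072 to −0.053), 0.05 for Mir130b (0.023 to 0.068), 0.01 for Mir301 (−0.037 to 0.060) and 0.07 for Mir301b (−0.15 to 0.29). The sign for Mir130a turned to 0.12 when libraries were scaled by total assigned reads, and that for Mir301 turned to −0.01 with DESeq2 size factors. Of the 4 members, 0 passed 2-fold, where 7.96% of the 289 genes averaging at least 10 CPM did. At 1.5-fold, 0 of 4 members passed, against 20.1% of those genes.

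The median log2 ratio of the members was 0.03, and that of the 289 genes was 0.02. By distance from a ratio of 1, 49 of the 289 genes, the 4 members among them, lay no farther out than Mir301b, the member farthest out. With a background of 7.96%, a count of 0 among 4 genes lies near the background and is no result about the members. One library on each side leaves no replicate spread for this ratio, so it has no p.

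**Figure D4:**
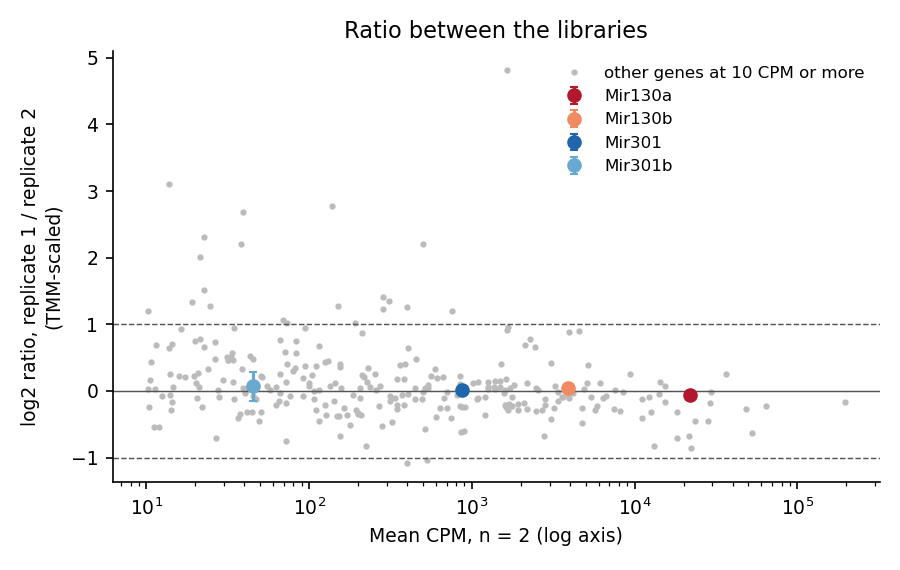
TMM-scaled log2 ratio of replicate 1 to replicate 2 against mean CPM (log axis) for 289 genes at 10 CPM or more, with the 4 family genes in colour, 95% counting intervals as bars and dashed lines at 2-fold. The members lie between −0.06 and 0.07, inside the dashed lines.

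The libraries themselves differed in marker miRNAs. The skeletal muscle markers, led by Mir206, summed to 3247 and 109 CPM in replicates 1 and 2. Of the 6 that have a row, 4 were read in both libraries, and Mir133a-1 and Mir133a-2 stood at 0. Mir206 held most of the sum, at 3184 and 99.8 CPM. Mir499 stood at 38.4 and 6.76 CPM and Mir133b at 24.95 and 2.51 CPM. Mir1a-1, with 4 and 3 reads, stood at 0.517 and 0.376 CPM. Of the 4 erythroid marker names 2 had a row, and these summed to 1224 and 577 CPM. Mir486, which the listed names Mir486a and Mir486b missed, had a row too and is outside this sum. It stood at 15.8 and 13.3 CPM in replicates 1 and 2. Mir451a stood at 1086 and 418 CPM, while Mir144 went the other way, at 138.7 and 159.5 CPM. The endothelial marker Mir126a stood at 29029 and 29049 CPM, the smooth muscle pair, led by Mir143, at 202084 and 197398 CPM, and the 5 epithelial miR-200 genes, led by Mir429, at 50884 and 51089 CPM. The gut epithelial list, led by Mir215, stood at 4171 and 3774 CPM, and the stratified epithelial list at 28559 and 38234 CPM. In the last list Mir203 stood at 17200 and 27343 CPM and Mir205 at 11359 and 10891 CPM. Lists of liver (Mir122), leukocyte (Mir223) and neuron (led by Mir137, with Mir124a-1, Mir124a-2 and Mir124a-3 at 0) each summed to at most 1821 CPM in either library. Multiply placed reads, 25.1% and 25.2% of all reads in replicates 1 and 2, are outside these counts. A 0 for genes numbered as copies, such as those of Mir124a and Mir133a, therefore does not show absence. Mir206, the skeletal muscle miRNA gene, was 28.1-fold higher in replicate 1 by TMM scaling. On that scale the ratio of replicate 1 to replicate 2 was 0.957 for Mir130a, 1.03 for Mir130b, 1.01 for Mir301 and 1.05 for Mir301b. The counting interval for Mir301b was 0.904 to 1.22. Which cells carried the family was not measured, and a part of these markers in the family's values was not tested.

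Other genes that give the seed AGUGCAA added no counted reads. Mir130c, Mir6341 and Mir6389 each had 0 sense reads in both libraries, a count that leaves room for at most 0.388 CPM (replicate 1) and 0.376 CPM (replicate 2) of reads placed in 1 position. Their mature sequences, shown to compare with miR-130a-3p, part from it after 12, 10 and 15 shared bases at the 5′ end.
miR-130c: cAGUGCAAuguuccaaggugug
miR-6341: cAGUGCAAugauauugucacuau
miR-6389: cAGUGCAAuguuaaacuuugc

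Mir721 gives the same seed and was not analysed here. The 4 members thus held every counted sense read from genes of this seed that were analysed. The longest stretch a member hairpin shares with another hairpin in the table is 17 bases, between Mir130a and Mir6389, and the other members reach 16. No member shares 20 bases with another hairpin. The deposited tables list multiply placed reads in a separate total, and whether a shortened or misread read of 1 member was placed on another was not tested.

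Genes whose seed shares 6 bases in a row with AGUGCAA were then set beside the family. These 6 bases, AGUGCA or GUGCAA, sit in a seed moved by 1 position, which is a different seed with its own targets. Of 8 such genes, 5 reached a mean of 10 CPM. The miR-148 and miR-152 genes have the seed CAGUGCA, and miR-19a has GUGCAAA.
miR-148a-3p: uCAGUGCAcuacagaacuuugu
miR-152-3p: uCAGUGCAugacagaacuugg
miR-19a-3p: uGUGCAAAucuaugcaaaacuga

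Mir148a stood at 1353 and 1171 CPM in replicates 1 and 2, Mir152 at 209.6 and 199.4 CPM, and Mir148b at 169.6 and 145.7 CPM. Mir148a thus lay between Mir130b and Mir301. The miR-130 and miR-301 family had 16.2 times the summed CPM of these 3 genes in replicate 1 and 16.8 times in replicate 2. As in the family, 1 gene led, and none of the 3 passed 2-fold between the libraries.

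The seed GUGCAAA of miR-19 overlaps at the other end. Mir19a, of the growth-linked miR-17-92 cluster, stood at 42.8 and 38.3 CPM, close to Mir301b. Mir19b-1 (4.91 and 9.02 CPM) and Mir19b-2 (4.78 and 3.26 CPM) give the same mature sequence and share 20 bases, so their counts are uncertain. Mir291b, of a cluster known from pluripotent cells, had 5 and 4 reads.

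Mir350 was the gene with an overlapping seed that differed most between libraries. It stood at 839.6 CPM in replicate 1 and 160.1 CPM in replicate 2, a TMM-scaled ratio of 4.62. It was the 1 of the 5 genes at 10 CPM or more to pass 2-fold, against 7.96% of all genes tested. Its overlapping seed is that of the 5′ arm, and the arm read was not measured.

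Genes nearest to each member in level were found by distance in log2(CPM + 1) over both libraries, with the 3 nearest named. For Mir130a these were Mir429 (distance 0.304), the epithelial miR-200 family gene, Mir322 (0.419) and Mir23b (0.434). For Mir130b they were Mir181c (0.0799), Mirlet7b (0.115) and Mir369 (0.156). For Mir301 they were Mir188 (0.0793), Mir542 (0.146) and Mir433 (0.168). For Mir301b they were Mir505 (0.0986), Mir666 (0.164) and Mir877 (0.185). The genes nearest to Mir130a lay farther from it than those of the other members. With 2 libraries this is a likeness of level, and it says nothing of a shared pattern across tissues.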

How the data were processed

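The authors deposited raw read counts per gene for each library, in 3 columns (without regard to strand, and on each strand). The build was mm10 and the annotation GENCODE M4, per the file headers. The aligner was not given in the sources used here, nor was the counter. The strand column with the larger total was taken as sense. Summary totals (49.2% and 48.5% of all reads in replicates 1 and 2, including multiply placed reads at 25.1% and 25.2% of all reads) name no gene and were left out.

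CPM, ranks, shares and exact intervals were computed with Python 3.11.15 and scipy 1.17.1. Symbols came from GENCODE M21, which matched 1894 of 1973 identifiers, and sequences from RefSeq. All 4 member hairpins and 7 of their mature sequences matched. For ratios, edgeR 4.0.16 gave TMM factors from genes averaging at least 10 CPM, and 0.5 reads were added. DESeq2 1.42.0 gave alternative size factors. No count model was fitted, since 1 group leaves no contrast. Calls were tested on simulated data with counting error only, which does not cover other spread between libraries. The members, lists and rules were chosen with earlier results of these data known. Named genes were the members, genes sharing their seed or 6 bases of it, the 3 nearest in level, neighbours within 10 kb on the same strand and host genes, and the top gene of each marker list. Of the neighbours within 10 kb that are not host genes, Mir301b and Mir130b were the counted ones.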

Additional observations from a re-analysis of the deposited data

Results flagged for a closer look

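Reads on the strand opposite to Mir130a, which the levels leave out, came to 8 in replicate 1 and 7 in replicate 2, above the 3 counts that a count of 0 allows. They were 0.00452% and 0.00416% of the reads at that gene. Mir301b had 1 such read in replicate 2, or 0.302% of its reads on both strands. Over all genes, opposite-strand reads came to 268011 of 8002589 assigned reads in replicate 1 and 231856 of 8215570 in replicate 2.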

How the results depend on the processing

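No paired analysis was possible because the series holds 1 group. Of 84 values recomputed under other settings, 59 stayed within 1 SD, the counting interval or 1.5 times the count, and 25 did not. With 2 libraries, each library alone always lies within 1 SD of their mean. The recomputations without 1 replicate were therefore sure to count among the 59. The order of the members held in all 12 recomputations (each library alone, hairpin length and counts without regard to strand). These are weak checks: the order in each library is given above, length rises as level falls, and opposite-strand reads are few. With all reads as the library size, Mir130a, Mir130b, Mir301 and Mir301b stood at 10888, 1930, 429 and 22.4 CPM and the family at 1.33%. Without the most abundant gene in the library size they stood at 27322, 4845, 1077 and 56.3 CPM and the family at 3.33%. Per hairpin length the 3 steps of the order were 2.86, 2.24 and 4.43 on the log2 scale, against 2.50, 2.17 and 4.26. Scaling by total assigned reads put the median log2 ratio over the 289 genes at 0.21 in place of 0.02. That scaling gave log2 ratios between libraries of 0.12 for Mir130a, 0.23 for Mir130b and 0.19 for Mir301. For Mir301b it gave 0.25, inside the counting interval. DESeq2 size factors gave −0.088 for Mir130a and 0.020 for Mir130b. TMM factors from all genes with a read, a setting chosen after seeing the data, gave −0.023 for Mir130a and 0.085 for Mir130b. Genes past 2-fold numbered 23 at 10 CPM or more, 267 among all genes with a read, 12 at 100 CPM or more and 58 at 1.5-fold. Among the first 23, 21 were higher in replicate 1; among the 267, 143 were. Of the 12 genes named as nearest in level, 6 stayed with replicate 1 alone and 6 with replicate 2 alone.

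Leaving out 1 replicate gave 21062.4 to 22879.5 CPM for Mir130a, 3589 to 4203 for Mir130b, 808 to 924 for Mir301, 41.3 to 49.3 for Mir301b and 2.55% to 2.81% for the family. At the depth here, Mir301b rests on 330 to 381 reads, so its ratio between libraries is known to about 0.2 on the log2 scale by counting alone.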
